A study of Macaca mulatta with 102 samples.

Results

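The mitosis genes described here are a set of 35 genes whose products carry a cell through chromosome condensation, spindle assembly, chromosome segregation and division. They were followed in blood T cells of rhesus macaques, healthy or after a transplant of hematopoietic cells. A member was measured by probe sets that the platform annotation pairs with that gene alone, over all 16 groups of the study. Of the 35 members, 22 had such a probe set, and these 22 had 41 probe sets. NEK2, a kinase of centrosome separation, was too dim to be tested, with a mean of 3.41 in healthy controls, so 21 members were tested among 10718 genes. No probe set of this kind paired with KIF11, KIF20A, BUB1, BUB1B, PLK1, NUSAP1, NDC80, TTK, CDC20, BIRC5, HMMR, UBE2C or PRC1, and these 13 members are not analysed here.

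Entry into mitosis is driven by cyclin-dependent kinase 1 (CDK1) bound to cyclin B, after cyclin A has helped the cell through DNA replication. Aurora kinases then shape the spindle, kinetochore proteins attach chromosomes to it, and the spindle checkpoint holds back the anaphase-promoting complex until every chromosome is attached; the complex then triggers destruction of cyclin B and of securin. Most of these transcripts are made only in late S, G2 and M phase, under factors such as FOXM1, so that resting blood T cells hold few of them and T cells that divide after activation or during refilling of an emptied T cell compartment hold many.

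T cells bearing CD3 were sorted by flow cytometry from blood and their RNA was hybridised to Affymetrix rhesus arrays. The values are log2 intensities, and every difference below is in log2 units, as the named group minus the group it is set against. Allogeneic recipients went without prophylaxis (NoRx.F, 4 arrays, days 6 to 12 after transplant) or had the mTOR inhibitor sirolimus against graft-versus-host disease (Siro.F, 4 arrays, days 12 to 24). Other allogeneic recipients had KY1005, which binds and blocks OX40 ligand, by itself (KY1005.D14, 2 arrays, days 14 to 16, and KY1005.F, 3 arrays, days 16 to 23) or together with sirolimus (KY1005.Siro.D14 and KY1005.Siro.D28, 5 arrays each at days 14 and 28, and KY1005.Siro.F, 4 arrays, days 97 to 106). Belatacept, which blocks costimulation through CD28, was given with sirolimus (Bela.Siro.D14, 3 arrays at day 14, Bela.Siro.D30, 2 arrays at day 30, and Bela.Siro.F, 7 arrays, days 26 to 105). Tacrolimus, a calcineurin inhibitor, was given with the antimetabolite methotrexate (Tac.Mtx.D14, 3 arrays at day 14, and Tac.Mtx.F, 3 arrays, days 26 to 67). Recipients of their own cells formed Auto.D14 (3 arrays at day 14), Auto.D36 (4 arrays, days 30 to 36) and Auto.D100 (4 arrays at day 100). Healthy.Control held 46 arrays of 45 healthy animals, some of which also have arrays in the groups after transplant, and the repeat arrays of R.201 were averaged. The labels do not spell out the F in group names.

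Animals recur between groups, all groups share the same healthy controls, and the labels do not say how donors and recipients were matched. The 6 measured genes of a fixed list of core T cell markers were all above the median of all values (5.21) in every group, with a mean level of 9.40 to 9.90 in NoRx.F and 9.55 to 10.35 in healthy controls. Array medians ran from 5.1 to 5.4, and the number of arrays limits the precision. In bulk samples such as these, a lower level may come from fewer cells of a type or from less RNA per cell, and these cannot be told apart.

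In healthy controls the members were unevenly measured. ASPM, a protein of the spindle poles, ran from 2.18 to 4.47 with a median of 3.15, and KIF23, a motor of the spindle midzone, from 3.60 to 5.12 with a median of 4.15. No healthy array of either gene reached the median of all values, so both passed the filter only because arrays after transplant did. Their fitted differences are given as a description, without a p. Counts of members called in the fit of all arrays against healthy controls or NoRx.F are also given without them. In other settings, such as within batches or with arrays left out, counts are over all 21 members. No share of all genes is given beside those. TPX2, which activates Aurora A on the spindle, reached the median of all values in 5 of 45 healthy arrays. CCNB2, a cyclin B, had a lowest, median and highest healthy level of 4.47, 5.68 and 6.72. CDK1 had 4.43, 5.43 and 6.82, and MKI67, which coats mitotic chromosomes and is the antigen of the Ki-67 stain, had 5.45, 6.07 and 7.27. TOP2A, which untangles sister DNA, had 4.49, 6.25 and 7.75. Healthy animals thus differed widely in these genes, and an array after transplant can stand above the healthy median and still lie within the range. CCNB1, the main cyclin B of mitotic entry, had 5.92, 6.54 and 7.63. AURKB, the kinase of the chromosomal passenger complex, had 6.93, 7.62 and 8.49. PBK, a mitotic kinase, had 5.23, 6.09 and 6.88, and DLGAP5, which stabilises the fibres between kinetochores and poles, had 5.02, 6.71 and 9.40. On its brighter probe set, used here, DLGAP5 was thus the most variable member among healthy animals, with an SD of 0.91. Its dimmer probe set differed, as given below.

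The group without prophylaxis had the most members called and the largest median difference of the 15 groups after transplant. Against healthy controls, 19 of 21 members rose in NoRx.F and 1 fell, by limma with Benjamini-Hochberg adjustment at 0.05, where 19% of all genes were called higher and 15.2% lower. The median difference of the members was 1.97, against 0.05 over all genes. Without ASPM and KIF23 the count was 17 of 19 higher and 1 lower. Siro.F followed with 17 higher and 1 lower (6.04% and 4.92% of all genes), then Auto.D36 with 15 higher (5.78%), Auto.D14 with 14 (13.7%), Tac.Mtx.F with 10 (10.1%) and KY1005.F with 9 (1.79%). In the same groups, without ASPM and KIF23, 15, 13, 13, 9 and 7 of 19 members rose. Few or no members were called elsewhere: 1 rose in Tac.Mtx.D14 (1.07% of all genes), 1 in Auto.D100 (1.68%) and 1 in Bela.Siro.F (7.86%), and none was called higher in KY1005.D14 (0.168%), KY1005.Siro.D14 (1.66%), KY1005.Siro.D28 (4.24%), KY1005.Siro.F (4.48%), Bela.Siro.D14 (2.31%) or Bela.Siro.D30 (0.877%).

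**Figure D1:**
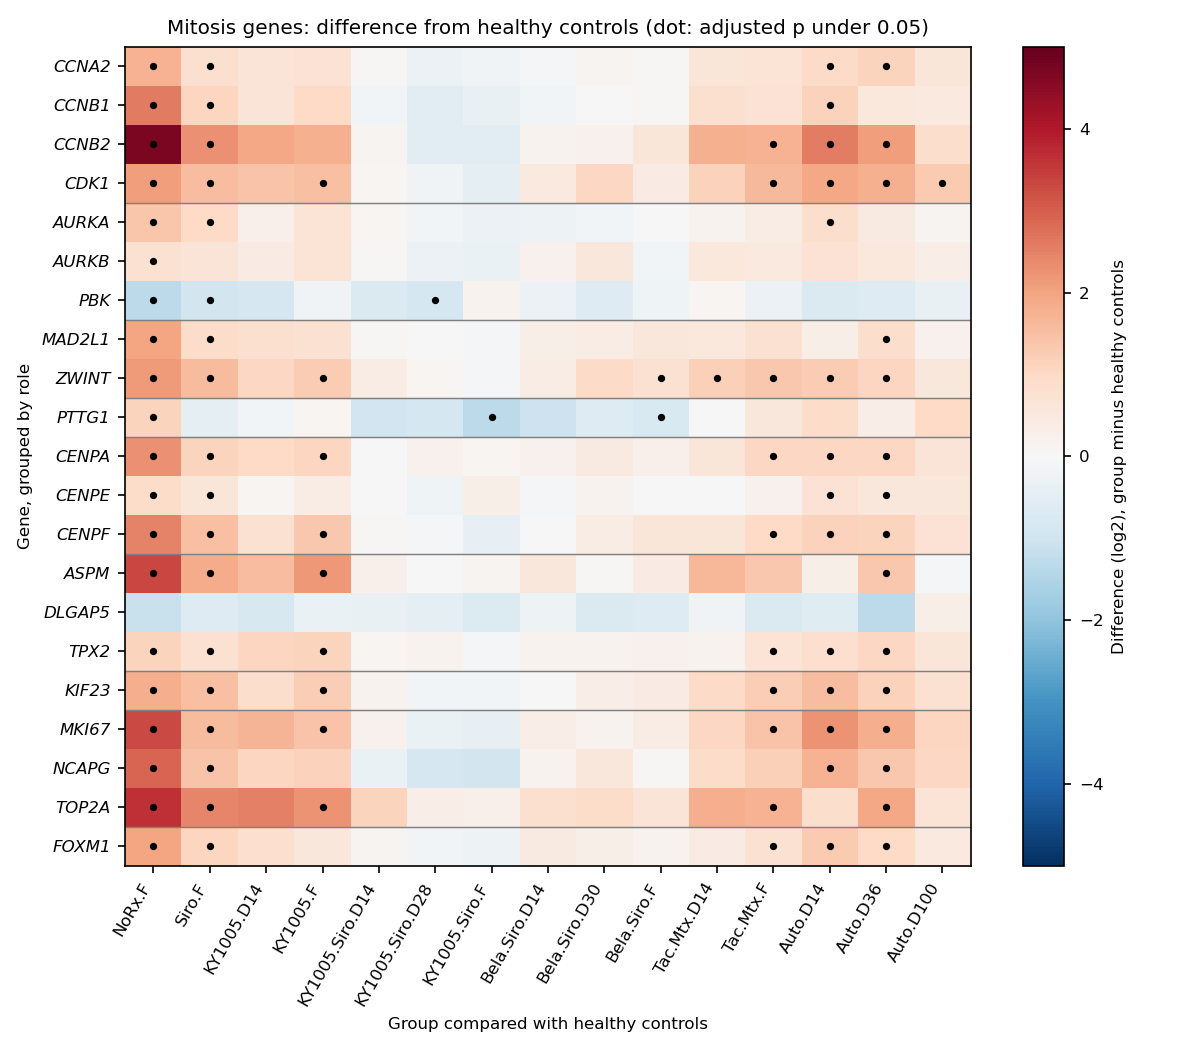
Difference of each tested mitosis gene (rows, by role) from healthy controls in the 15 groups after transplant (columns), in log2 units, with calls past an adjusted p of 0.05 marked. NoRx.F holds the darkest column, with 19 of 21 members higher, while PBK, DLGAP5 and PTTG1 differ in direction from the other members in several groups. Each gene is shown by its brightest probe set.

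Across the 15 groups set against healthy controls, ZWINT, a kinetochore protein that anchors the checkpoint, was called higher most often, in 8 groups. CDK1 was called higher in 7. Of the members measured in healthy arrays, CENPA, CENPF, MKI67 and TPX2 were called higher in 6 each. DLGAP5, by its brighter probe set, was called in none, and PBK was called lower in 3 and higher in none. PTTG1, securin, was called higher in 1 group and lower in 2.

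By array, the set was summarised as the median over the 21 members of the difference from the healthy mean. The 4 NoRx.F arrays had 2.51 (R.50), 2.45 (R.52), 1.66 (R.53) and 0.89 (R.51), and all of them exceeded the healthy range of -0.38 to 0.56. In Siro.F the arrays had 2.04 (R.18), 1.06 (R.13), 0.59 (R.16) and 0.38 (R.17), and only R.17 fell inside that range. KY1005.F split in the same way, with 2.20 in R.211, 0.69 in R.206 and 0.29 in R.212. The KY1005.Siro.D14 arrays ran from -0.07 to 0.42 and none left the healthy range.

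**Figure D2:**
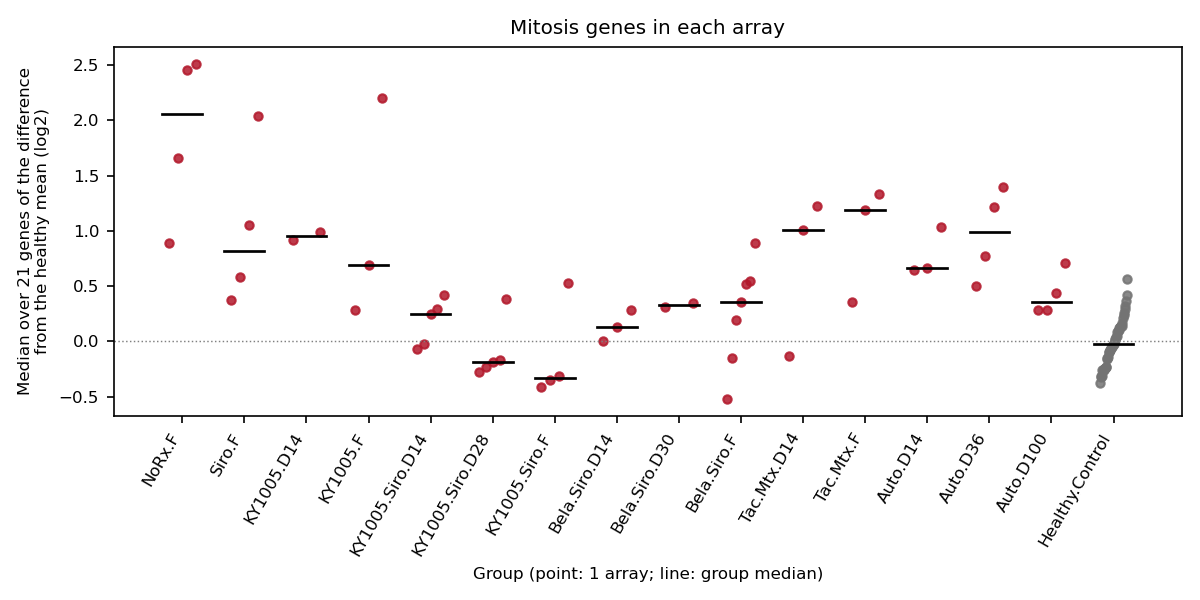
Median over the 21 tested members of the difference from the healthy mean (vertical axis, log2 units), with a point for each array and a line at each group's median. All 4 NoRx.F arrays lie above the healthy range of -0.38 to 0.56, and single arrays (R.18 in Siro.F, R.211 in KY1005.F) stand far above the rest of their groups.

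Among the cyclins and CDK1, all 4 members rose in NoRx.F. CCNB2 had 11.15 (R.50), 10.82 (R.52), 9.65 (R.53) and 9.47 (R.51), against a healthy range of 4.47 to 6.72, a difference of 4.69 ± 0.47 (SE; limma adjusted p = 1.78e-13), the largest of the set. Every NoRx.F array thus lay far above the highest healthy array. CCNB1 had 10.41, 9.5, 8.76 and 8.08 in R.50, R.52, R.53 and R.51, against 5.92 to 7.63 in healthy controls (2.60 ± 0.28, limma adjusted p = 2.13e-12). Here too the groups did not overlap. CDK1 had 8.03, 8.49, 7.13 and 6.33 in the same order, against 4.43 to 6.82 (2.09 ± 0.37, limma adjusted p = 5.62e-06), and R.51 lay within the healthy range. CCNA2, cyclin A, rose by 1.74 ± 0.25, with R.51 inside the healthy range as well.

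The 3 members of chromosome structure all rose, with a median difference of 3.30. TOP2A had 10.42 (R.50), 10.88 (R.52), 8.67 (R.53) and 9.18 (R.51) in NoRx.F, against 4.49 to 7.75 in healthy controls (3.64 ± 0.50, limma adjusted p = 9.54e-09). MKI67 had 9.72 (R.52), 9.21 (R.53) and 8.91 (R.51), and was higher still in R.50, against 5.45 to 7.27 (3.30 ± 0.37, limma adjusted p = 1.56e-11). For both genes every NoRx.F array lay above every healthy array. NCAPG, a condensin subunit, rose by 2.91 ± 0.40, again with no overlap.

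The 3 centromere and kinetochore members and the 2 checkpoint members rose as well. CENPA, the histone variant that marks centromeres, differed by 2.30 ± 0.21, its arrays at 7.43 to 8.15 in NoRx.F, against 5.16 to 6.23 in healthy controls, and had the smallest adjusted p of the set (limma, 5.76e-15). CENPF, a kinetochore protein, rose by 2.47 ± 0.28 and CENPE, the kinesin that moves chromosomes to the metaphase plate, by 0.93 ± 0.18. ZWINT rose by 2.12 ± 0.26 and MAD2L1, which restrains the anaphase-promoting complex, by 1.97 ± 0.29. FOXM1, the transcription factor of late cell cycle genes, rose by 1.97 ± 0.25 with no overlap between the groups.

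Spindle and cytokinesis members were mixed. ASPM had 6.23 (R.50), 7.54 (R.52), 6.47 (R.53) and 5.09 (R.51) in NoRx.F, against 2.18 to 4.47 in healthy controls, a fitted difference of 3.33. TPX2 rose by 1.13 ± 0.20, and KIF23 had a fitted difference of 1.81. The brighter probe set of DLGAP5 had 5.41, 5.33, 5.98 and 5.23 in the same order of animals, against 5.02 to 9.40. Its difference of -1.13 ± 0.47 did not pass the test (limma adjusted p = 0.0653), and all 4 arrays lay below the healthy median of 6.71. The dimmer probe set of this gene lay higher in NoRx.F, as given below.

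The kinases differed in direction, and securin rose. AURKA, the kinase of spindle poles, rose by 1.39 ± 0.22. AURKB had 8.60 (R.50), 8.72 (R.52), 8.18 (R.53) and 8.26 (R.51) in NoRx.F, against 6.93 to 8.49 in healthy controls (0.78 ± 0.27, limma adjusted p = 0.0236), and the groups overlapped. PBK fell, with 4.69, 4.76, 5.31 and 4.35 in the same order, against 5.23 to 6.88 (-1.31 ± 0.23, limma adjusted p = 3.97e-06). It was the only member called lower in NoRx.F, and R.53 alone lay within the healthy range. PTTG1 had 13.18, 12.09, 11.55 and 11.41, against 9.88 to 11.95, and rose by 1.12 ± 0.34 (limma adjusted p = 0.00778).

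In all, 12 of 21 members had every NoRx.F array above the highest healthy array (11 of 19 without ASPM and KIF23), as had 4.63% of all genes. Restricted to batches 1 and 2, which hold the group and 15 healthy arrays, 18 members rose and 1 fell. PTTG1 was no longer called there (1.10 ± 0.48, limma adjusted p = 0.105). CCNB2 differed by 4.70 ± 0.43 and MKI67 by 3.28 ± 0.32 within these batches. Leaving out any NoRx.F array left 18 to 20 of 21 members called. The within-batch and leave-out counts cover all 21 members, ASPM and KIF23 included, with no share of all genes given.

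**Figure D3:**
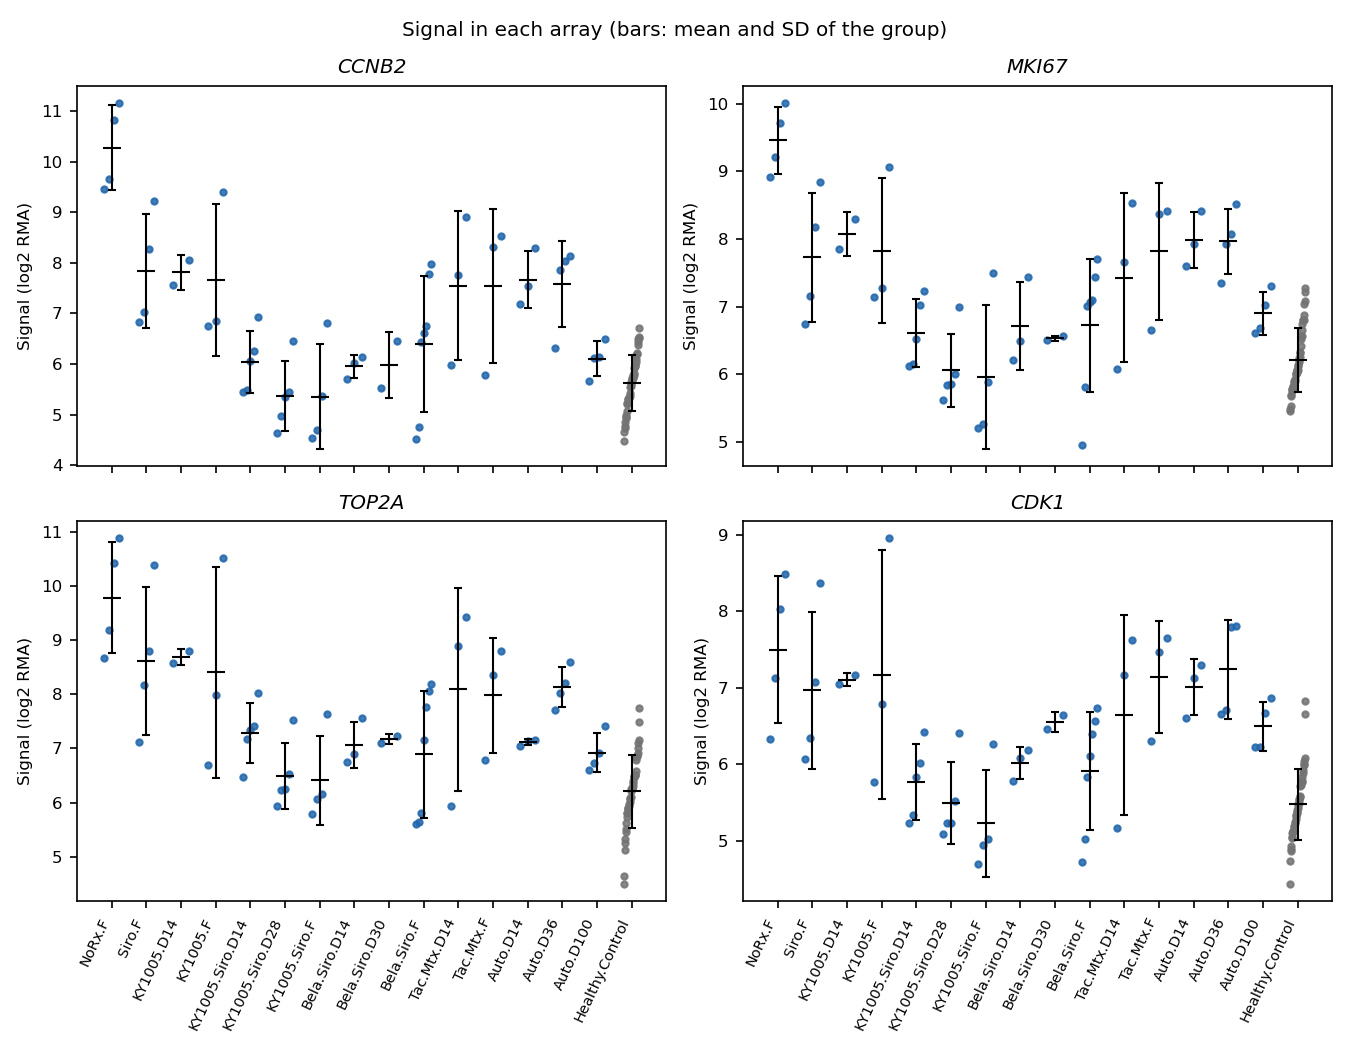
Levels (log2 RMA signal) of CCNB2, MKI67, TOP2A and CDK1 in each array of 16 groups, with bars for the mean and SD of the group. CCNB2, TOP2A and MKI67 reach 8.67 or more in every NoRx.F array and stay at or under 7.75 in healthy controls, and most arrays of the groups given KY1005 with sirolimus lie within the healthy range.

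Under sirolimus alone, 17 members rose with a median difference of 1.08, and R.18 was the highest array for most of them. CCNB2 had 9.22 (R.18), 8.27 (R.13), 6.83 (R.17) and 7.03 (R.16) in Siro.F, against 4.47 to 6.72 in healthy controls (2.27 ± 0.45, limma adjusted p = 0.000222), and the groups did not overlap. TOP2A had 10.38, 8.79, 7.11 and 8.17 in R.18, R.13, R.17 and R.16, against 4.49 to 7.75 (2.44 ± 0.48, limma adjusted p = 0.000209), the largest difference of the group. ASPM had 7.36, 5.28, 3.42 and 3.69 in that order, against 2.18 to 4.47, a fitted difference of 1.86. R.17 lay within the healthy range of both TOP2A and ASPM. MKI67 had 8.84, 8.17, 7.16 and 6.75, against 5.45 to 7.27 (1.58 ± 0.35, limma adjusted p = 0.00131). CDK1 had 8.37, 7.08, 6.35 and 6.07, against 4.43 to 6.82 (1.54 ± 0.36, limma adjusted p = 0.00203). CCNB1 had 8.37, 7.57, 7.35 and 7.30, against 5.92 to 7.63 (1.07 ± 0.26, limma adjusted p = 0.00365). For each of these 3 genes R.18 was the highest array and R.16 the lowest.

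ZWINT differed by 1.60 ± 0.25 (limma adjusted p = 5.08e-06) and CENPA by 1.12 ± 0.20, and with CCNB2 they were the 3 members whose Siro.F arrays all lay above the healthy range, as did those of 0.56% of all genes. AURKB had 9.07 (R.18), 8.69 (R.13), 7.62 (R.17) and 7.98 (R.16), against 6.93 to 8.49 in healthy controls, and was not called (0.65 ± 0.26, limma adjusted p = 0.107). PBK fell in Siro.F as well, with 4.95, 5.21, 5.33 and 5.24 in the same order, against 5.23 to 6.88 (-0.93 ± 0.22, limma adjusted p = 0.00261). R.18 and R.13 lay below every healthy array, and the other two just above the lowest. DLGAP5 had 5.47, 5.75, 5.54 and 7.23, against 5.02 to 9.40 (-0.65 ± 0.45, limma adjusted p = 0.431), with R.16 high. PTTG1 had 11.10, 11.11, 8.10 and 11.60, against 9.88 to 11.95, and was not called (-0.50 ± 0.32, limma adjusted p = 0.384), R.17 lying far below every healthy array.

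Without R.18 the count of members called in Siro.F was 5 in place of 18, and without R.17 it was 19. Within batches 1 and 2, 14 members rose and 1 fell, with CCNB2 at 2.29 ± 0.41 and MKI67 at 1.56 ± 0.31. These counts cover all 21 members, with no share of all genes given.

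With KY1005 alone near day 14, levels of R.210 and R.212 were close to each other and above most healthy arrays, but 2 arrays gave no call. None of 21 members passed limma's adjusted threshold in KY1005.D14, 13 had an unadjusted p under 0.05 (13.8% of all genes), and 10 had both arrays above the highest healthy array (3.15% of all genes). Without ASPM and KIF23 these were 11 and 9 of 19. TOP2A had 8.79 and 8.58 in R.210 and R.212, against 4.49 to 7.75 in healthy controls (2.53 ± 0.68, limma adjusted p = 0.079). CCNB2 had 8.06 and 7.56, against 4.47 to 6.72 (1.92 ± 0.64, limma adjusted p = 0.166). MKI67 had 8.30 and 7.85, against 5.45 to 7.27 (1.69 ± 0.50, limma adjusted p = 0.12). For these 3 genes both arrays exceeded every healthy array. CDK1 had 7.04 and 7.17, against 4.43 to 6.82 (1.43 ± 0.51, limma adjusted p = 0.205), and TPX2 had 6.03 and 6.04, against 4.40 to 5.43 (1.07 ± 0.27, limma adjusted p = 0.0577). ASPM had 4.94 and 4.40, CCNB1 7.48 and 7.18, and AURKB 8.21 and 8.15, and each had at least 1 array within the healthy range. PBK had 5.37 and 5.26 and DLGAP5 5.51 and 6.22, within the healthy ranges. Without the batch term 7 members were called in place of 0, and with the animal as a random replicate block 1.

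In KY1005.F, 9 members rose and none fell, and R.211 stood above the other arrays for most of them. TOP2A had 10.52 (R.211), 7.98 (R.206) and 6.70 (R.212), against 4.49 to 7.75 in healthy controls (2.24 ± 0.58, limma adjusted p = 0.0193). ASPM had 7.67, 4.70 and 3.50 in that order, against 2.18 to 4.47, a fitted difference of 2.15. CDK1 had 8.95, 6.79 and 5.76, against 4.43 to 6.82 (1.49 ± 0.44, limma adjusted p = 0.041). For each gene R.212 lay within the healthy range. MKI67 had 9.06, 7.14 and 7.27, against 5.45 to 7.27 (1.44 ± 0.43, limma adjusted p = 0.0464). CCNB2 had 9.39, 6.85 and 6.75, against 4.47 to 6.72; all 3 exceeded the healthy range but the difference missed the threshold (1.77 ± 0.55, limma adjusted p = 0.0515). CCNB1 had 9.20, 7.14 and 6.69, against 5.92 to 7.63 (0.98 ± 0.32, limma adjusted p = 0.066), and AURKB had 9.68, 7.98 and 7.65, against 6.93 to 8.49 (0.67 ± 0.32, limma adjusted p = 0.205). In both, only R.211 exceeded the healthy range.

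The other members called in KY1005.F were CENPF (1.36 ± 0.32), ZWINT (1.26 ± 0.31), TPX2 (1.12 ± 0.23) and CENPA (1.08 ± 0.25), with KIF23 at a fitted difference of 1.23. PBK had 6.09 (R.211), 5.79 (R.206) and 6.07 (R.212), against 5.23 to 6.88 in healthy controls (-0.16 ± 0.27, limma adjusted p = 0.755), and DLGAP5 had 6.48, 6.75 and 5.75, against 5.02 to 9.40 (-0.34 ± 0.55, limma adjusted p = 0.745), all within the healthy ranges. Of the members, 0 were called without R.211, 5 without R.206 and 14 without R.212. Within batch 6, which holds the group and 7 healthy arrays, 3 members were called, among them ZWINT (1.26 ± 0.29, limma adjusted p = 0.0442), while MKI67 was not (1.44 ± 0.45, limma adjusted p = 0.133). Without the batch term the count was 14.

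With sirolimus added to KY1005, no member was called higher at any of the 3 times, PBK was called lower at day 28 and PTTG1 near day 100. At day 14, in KY1005.Siro.D14, none was called by limma in either direction, 3 had an unadjusted p under 0.05 (19.5% of all genes), and the median difference was 0.08. CCNB2 had 6.27 (R.221), 6.93 (R.218), 6.05 (R.217), 5.44 (R.220) and 5.48 (R.219), against 4.47 to 6.72 in healthy controls (0.14 ± 0.46, limma adjusted p = 0.913). MKI67 had 7.23, 7.02, 6.52, 6.15 and 6.12 in the same order, against 5.45 to 7.27 (0.22 ± 0.37, limma adjusted p = 0.804). R.218 alone exceeded the healthy range, and only for CCNB2. TOP2A had 7.41, 8.02, 7.34, 6.48 and 7.17, against 4.49 to 7.75 (1.13 ± 0.50, limma adjusted p = 0.192), CDK1 had 5.83, 6.42, 6.01, 5.22 and 5.34, against 4.43 to 6.82 (0.09 ± 0.37, limma adjusted p = 0.938), and CCNB1 had 6.79, 6.93, 6.58, 6.30 and 6.26, against 5.92 to 7.63 (-0.12 ± 0.27, limma adjusted p = 0.866). TOP2A had the largest difference from healthy at this time, with R.218 above every healthy array. ASPM ran from 3.08 to 3.91, AURKB from 7.37 to 8.18, PBK from 4.66 to 5.86 and DLGAP5 from 4.76 to 7.09 over the 5 arrays, and none of these was called.

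At day 28, 3 of 21 members had a fitted difference above 0 from day 14 in the same 5 animals. CCNB2 had 6.45 (R.219), 5.46 (R.218), 4.64 (R.217), 5.34 (R.220) and 4.96 (R.221) in KY1005.Siro.D28, against 4.47 to 6.72 in healthy controls (-0.52 ± 0.46, limma adjusted p = 0.509). MKI67 had 6.99, 6.0, 5.85, 5.84 and 5.62 in that order, against 5.45 to 7.27 (-0.33 ± 0.37, limma adjusted p = 0.621), and R.219 was the highest of the group for both genes. TOP2A ran from 5.93 to 7.52, CDK1 from 5.08 to 6.41, CCNB1 from 5.80 to 6.56, AURKB from 7.25 to 7.69, ASPM from 2.75 to 3.82 and DLGAP5 from 5.63 to 6.67, none called. PBK was the only member called, and it fell, with 5.28, 5.48, 5.09, 5.38 and 5.05, against 5.23 to 6.88 (-0.89 ± 0.23, limma adjusted p = 0.00612), where 7.02% of all genes were called lower.

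Near day 100, in KY1005.Siro.F, R.217 differed from the other 3 animals. CCNB2 had 6.81 in R.217 and 5.36, 4.70 and 4.54 in R.220, R.221 and R.219, against 4.47 to 6.72 in healthy controls (-0.54 ± 0.50, limma adjusted p = 0.52). MKI67 had 7.49 in R.217 and 5.88, 5.26 and 5.21 in the others, against 5.45 to 7.27 (-0.43 ± 0.39, limma adjusted p = 0.52). For both genes R.217 exceeded every healthy array, and for MKI67 R.219 and R.221 lay below every healthy array. TOP2A had 7.63 in R.217 and 5.80 to 6.16 in the others, CDK1 6.26 and 4.69 to 5.01, CCNB1 7.21 and 5.47 to 6.48, AURKB 8.25 and 7.11 to 7.22, and ASPM 4.45 and 2.68 to 3.10. DLGAP5 ran from 5.87 to 6.19 and PBK from 5.47 to 7.31, with R.219 the highest for PBK. PTTG1 was the member called, and it fell, with 10.85 in R.217 and 9.66, 10.21 and 9.36 in R.220, R.221 and R.219, against 9.88 to 11.95 (-1.30 ± 0.36, limma adjusted p = 0.0159), where 3.39% of all genes were called lower. That call was lost without R.219 or without R.220, and without R.217 2 members were called.

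Belatacept with sirolimus gave few calls at any time. Neither Bela.Siro.D14 nor Bela.Siro.D30 had a member called by limma, and there 1 and 3 members had an unadjusted p under 0.05 (22.1% and 13.2% of all genes). CCNB2 had 5.70, 6.01 and 6.14 in R.38, R.42 and R.49 at day 14 and 5.53 and 6.45 in R.38 and R.42 at day 30, all within the healthy range of 4.47 to 6.72. MKI67 had 6.49, 6.21 and 7.44 at day 14 and 6.50 and 6.56 at day 30, and R.49 alone exceeded the healthy highest of 7.27. TOP2A had 6.89, 6.76 and 7.55 at day 14 and 7.23 and 7.11 at day 30, and CDK1 had 6.18, 5.78 and 6.07 at day 14 and 6.64 and 6.46 at day 30. Both stayed within their healthy ranges. ZWINT was the member with both day 30 arrays above the highest healthy array, at 7.41 and 7.94, against 6.04 to 7.35 in healthy controls (0.96 ± 0.34, limma adjusted p = 0.168). ASPM ran from 2.89 to 4.36, AURKB from 7.49 to 8.47, CCNB1 from 6.21 to 6.75, PBK from 5.24 to 6.09 and DLGAP5 from 5.68 to 7.24 over these 5 arrays, all within the healthy ranges.

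In Bela.Siro.F, sampled at days 26 to 105, ZWINT rose and PTTG1 fell. ZWINT had a lowest, median and highest of 6.47, 7.63 and 8.07, against 6.04, 6.72 and 7.35 in healthy controls (0.75 ± 0.21, limma adjusted p = 0.0118). PTTG1 had 9.67, 10.29 and 11.34, against 9.88, 11.07 and 11.95 (-0.78 ± 0.27, limma adjusted p = 0.047), where 3.82% of all genes were called lower. CCNB2 had 4.51, 6.60 and 7.98, against 4.47, 5.68 and 6.72 (0.61 ± 0.37, limma adjusted p = 0.317), and MKI67 had 4.95, 7.07 and 7.70, against 5.45, 6.07 and 7.27 (0.35 ± 0.29, limma adjusted p = 0.504). The animals were thus spread over and beyond the healthy range for both genes, R.38 being the highest and R.68 the lowest. TOP2A ran from 5.61 to 8.18, CDK1 from 4.72 to 6.74, CCNB1 from 6.34 to 7.41, AURKB from 7.03 to 8.27, ASPM from 2.48 to 4.99, PBK from 5.25 to 6.37 and DLGAP5 from 5.30 to 6.63, none called. The count of 2 was 1 without R.42, R.49, R.68, R.66 or R.70. Within batch 3, which holds 13 healthy arrays, 2 members rose and 1 fell, and in Bela.Siro.D14 1 fell.

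Under tacrolimus and methotrexate R.20 and R.21 were high at both times and R.19 was not. At day 14 CCNB2 had 8.90 (R.20), 7.75 (R.21) and 5.99 (R.19) in Tac.Mtx.D14, against 4.47 to 6.72 in healthy controls (1.76 ± 0.51, limma adjusted p = 0.0677). TOP2A had 9.43, 8.90 and 5.94 in that order, against 4.49 to 7.75 (1.84 ± 0.54, limma adjusted p = 0.079), and MKI67 had 8.53, 7.67 and 6.07, against 5.45 to 7.27 (1.05 ± 0.40, limma adjusted p = 0.204). In all 3 genes R.20 and R.21 exceeded every healthy array and R.19 lay within the range. CDK1 had 7.62, 7.16 and 5.16, ASPM 5.88, 5.22 and 3.25, CCNB1 7.93, 7.62 and 6.87, and AURKB 8.74, 8.16 and 7.87. PBK ran from 5.93 to 6.45 and DLGAP5 from 6.09 to 6.57. ZWINT was the member called, with 8.41, 8.25 and 7.05, against 6.04 to 7.35 (1.19 ± 0.29, limma adjusted p = 0.0193). An unadjusted p under 0.05 was found for 12 members (15.6% of all genes), or 10 of 19 without ASPM and KIF23. Of all 21 members, 8 were called without R.19 and none without R.20 or without R.21.

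In Tac.Mtx.F, 10 members rose. CCNB2 had 8.31 (R.20), 8.53 (R.21) and 5.79 (R.19), against 4.47 to 6.72 in healthy controls (1.76 ± 0.51, limma adjusted p = 0.0125). TOP2A had 8.36, 8.80 and 6.78 in that order, against 4.49 to 7.75 (1.73 ± 0.54, limma adjusted p = 0.0218), and CDK1 had 7.47, 7.65 and 6.30, against 4.43 to 6.82 (1.63 ± 0.41, limma adjusted p = 0.00396). MKI67 had 8.37, 8.42 and 6.65, against 5.45 to 7.27 (1.44 ± 0.40, limma adjusted p = 0.00975). R.19 lay within the healthy range for each of these genes. The other members that rose were ZWINT (1.36 ± 0.29), CENPA (1.02 ± 0.23), CENPF (1.01 ± 0.30), FOXM1 (0.78 ± 0.27) and TPX2 (0.69 ± 0.21), and KIF23 had a fitted difference of 1.23. ASPM had 4.98, 5.34 and 3.07, CCNB1 7.56, 7.77 and 6.85, AURKB 8.56, 8.27 and 7.81, PBK 5.71, 5.73 and 5.84, and DLGAP5 6.74, 5.95 and 4.90, none called. The count was 2 without R.20 and 3 without R.21, and within batch 3 it was 12, over all 21 members and with no share of all genes given.

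Recipients of their own cells had 14 members called higher at day 14 and 15 at days 30 to 36. R.202 and R.201 of Auto.D14 are among the 6 arrays whose 3' actin control probe sets exceed the 5' ones by over 2.5 log2 units, a sign of degraded RNA, and without such arrays R.200 alone remains and no member was called. In Auto.D14, CCNB2 had 8.28 (R.202), 7.54 (R.201) and 7.18 (R.200), against 4.47 to 6.72 in healthy controls (2.56 ± 0.59, limma adjusted p = 0.00214). MKI67 had 8.42, 7.61 and 7.93 in that order, against 5.45 to 7.27 (2.23 ± 0.46, limma adjusted p = 0.000935), and for both genes the groups did not overlap. CDK1 had 7.30, 7.13 and 6.60, against 4.43 to 6.82 (1.92 ± 0.47, limma adjusted p = 0.00352), and CCNB1 had 7.68, 7.61 and 7.09, against 5.92 to 7.63 (1.14 ± 0.35, limma adjusted p = 0.0158). TOP2A, with 7.15, 7.14 and 7.05, against 4.49 to 7.75, was not called (0.87 ± 0.63, limma adjusted p = 0.329), and nor were ASPM at 4.14, 3.24 and 3.10 or AURKB at 8.42, 8.33 and 8.09. TOP2A and ASPM, among the largest differences in NoRx.F, were thus within the healthy range at day 14 after autologous transplant. PBK had 5.48, 5.68 and 5.32 and DLGAP5 6.26, 6.19 and 6.14, not called. The count of 14 was 1 without R.202 and 8 without R.201. Within batch 5, which holds 4 healthy arrays, 16 members rose and 2 fell, with no share of all genes given. Healthy arrays of batch 5 had the lowest mean of the 6 batches for CCNB2 (5.04) and MKI67 (5.63). For TOP2A (6.25) they did not.

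At days 30 to 36, 15 members rose in Auto.D36. CCNB2 had 8.03 (R.200), 7.86 (R.201), 8.12 (R.62) and 6.31 (R.202), against 4.47 to 6.72 in healthy controls (2.09 ± 0.46, limma adjusted p = 0.00188), with R.202 inside the healthy range. TOP2A had 8.6, 8.2, 8.03 and 7.71 in that order, against 4.49 to 7.75 (1.94 ± 0.50, limma adjusted p = 0.00701), and MKI67 had 8.51, 8.07, 7.93 and 7.35, against 5.45 to 7.27 (1.83 ± 0.37, limma adjusted p = 0.000627), without overlap for MKI67. CDK1 had 7.79, 7.81, 6.71 and 6.66, against 4.43 to 6.82 (1.76 ± 0.37, limma adjusted p = 0.000988), and ASPM had 4.83, 4.16, 5.29 and 3.13, against 2.18 to 4.47, a fitted difference of 1.36. CCNB1 had 7.44, 7.41, 7.19 and 6.30, and AURKB 8.36, 8.15, 8.46 and 7.75, neither called. PBK at 5.65, 5.32, 6.02 and 4.69 (-0.64 ± 0.23, limma adjusted p = 0.0603) and DLGAP5 at 6.19, 6.07, 4.39 and 5.66 (-1.32 ± 0.47, limma adjusted p = 0.0591) were below the healthy mean but not called. The count of 15 was 8 without R.200 and 9 without R.201, and within batches 2 and 4 it was 15. All 21 members enter these counts, with no share of all genes given.

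By day 100 the levels were nearer to the healthy ones. CDK1 was the only member called in Auto.D100, with 6.87 (R.201), 6.67 (R.202), 6.22 (R.60) and 6.22 (R.200), against 4.43 to 6.82 (1.31 ± 0.39, limma adjusted p = 0.0499), and without any of the 4 arrays, or with the animal as a random replicate block, it was not called. CCNB2 had 6.50, 6.12, 6.14 and 5.66 in that order and MKI67 had 7.30, 7.02, 6.68 and 6.61, with R.201 alone above the healthy range, for MKI67. TOP2A ran from 6.6 to 7.42, CCNB1 from 6.6 to 7.29, AURKB from 7.74 to 8.05, ASPM from 2.82 to 3.46, PBK from 5.44 to 6.06 and DLGAP5 from 6.35 to 8.62, none called. Of the members, 11 had an unadjusted p under 0.05 (18.7% of all genes), or 10 of 19 without ASPM and KIF23. Within batches 2 and 5, 4 of all 21 members were called, MKI67 among them (1.11 ± 0.25, limma adjusted p = 0.0362).

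Groups after transplant were then compared with each other. Against NoRx.F, 6 members fell in Siro.F and none rose (5.17% of all genes called lower), with a median of -0.95. They were CCNB2 (-2.42 ± 0.57, limma adjusted p = 0.0032), MKI67 (-1.72 ± 0.45), PTTG1 (-1.62 ± 0.41), CCNB1 (-1.52 ± 0.33), CENPA (-1.18 ± 0.25) and CCNA2 (-0.95 ± 0.30). CCNB2 and MKI67 levels, given above by animal, did not overlap between the groups. Neither ASPM nor KIF23 is among them. For TOP2A (-1.20 ± 0.61, limma adjusted p = 0.266), CDK1 (-0.55 ± 0.45, limma adjusted p = 0.57) and AURKB (-0.13 ± 0.33, limma adjusted p = 0.891) the difference was not called. The count was 3 without R.50 or R.17, 10 without R.51 and 11 without R.18.

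KY1005.F against NoRx.F had 5 members lower (6.51% of all genes) and PBK higher (4.53%), with a median of -1.04. CCNB2 differed by -2.92 ± 0.72 (limma adjusted p = 0.00551), MKI67 by -1.86 ± 0.57, CCNB1 by -1.61 ± 0.42, FOXM1 by -1.40 ± 0.38, CENPA by -1.22 ± 0.32 and PBK by 1.15 ± 0.35 (limma adjusted p = 0.0296). TOP2A (-1.39 ± 0.77), CDK1 (-0.60 ± 0.58) and AURKB (-0.11 ± 0.42) were not called. The count of 6 was 0 without R.212, 2 without R.206, 3 without R.50, 10 without R.53 and 14 without R.211. These groups share no batch, so their difference was estimated through the healthy arrays of each batch.

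KY1005.Siro.D14 had 18 members lower than NoRx.F (12.2% of all genes), 16 of 19 without ASPM and KIF23, with a median of -1.93, and 16 of 21 members had every array below every NoRx.F array (15 of 19 without both), as had 8.43% of all genes. CCNB2 differed by -4.55 ± 0.66 (limma adjusted p = 3.82e-07), NCAPG by -3.23 ± 0.56, MKI67 by -3.08 ± 0.52, CCNB1 by -2.72 ± 0.39, TOP2A by -2.51 ± 0.70 and CDK1 by -2.0 ± 0.53. AURKB (-0.74 ± 0.38, limma adjusted p = 0.192), PBK (0.60 ± 0.32) and DLGAP5 (0.77 ± 0.67) were not called. Leaving out any array of either group left the count at 18. The groups share no batch, and they were sampled at day 14 and at days 6 to 12.

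Sirolimus with KY1005 at day 14 was also set against KY1005.F, both in batch 6. All 21 differences were below 0, with a median of -1.04. CENPA (-1.06 ± 0.26, limma adjusted p = 0.0396) and TPX2 (-1.03 ± 0.24, limma adjusted p = 0.0354) fell (0.243% of all genes called lower). An unadjusted p under 0.05 was found for 15 members (16.6% of all genes), or 13 of 19 without ASPM and KIF23. CCNB2 (-1.63 ± 0.58, limma adjusted p = 0.147) and MKI67 (-1.22 ± 0.46, limma adjusted p = 0.171) did not pass. The count was 0 without R.211, R.206, R.219 or R.221 and 7 without R.212.

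NoRx.F against Auto.D36 had 4 members higher (3.33% of all genes): CCNB2 (2.61 ± 0.65, limma adjusted p = 0.00869), CCNB1 (2.06 ± 0.38, limma adjusted p = 0.000296), CENPF (1.37 ± 0.38) and CENPA (1.27 ± 0.29), with a median of 0.98. TOP2A (1.70 ± 0.69, limma adjusted p = 0.158) and MKI67 (1.48 ± 0.51, limma adjusted p = 0.0823) did not overlap between the groups and were not called. CDK1 (0.33 ± 0.52), AURKB (0.25 ± 0.38) and TPX2 (0.08 ± 0.27) differed little. Without R.53 or R.51 the count was 8. The cyclins B were thus the members for which the group without prophylaxis lay farthest above autologous recipients, at days 6 to 12 against days 30 to 36.

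Over time within a treatment, few or no members were called. KY1005.Siro.F against KY1005.Siro.D28 had PBK higher (1.07 ± 0.26, limma adjusted p = 0.0118, 2.24% of all genes called higher), and it was not called without R.219 or with the animal as a fixed replicate block. No member was called by limma in KY1005.Siro.D28 against KY1005.Siro.D14, Tac.Mtx.F against Tac.Mtx.D14 or Bela.Siro.F against Bela.Siro.D14, each with 0.00933% of all genes called, nor in Auto.D36 against Auto.D14 (4.97%) or Auto.D100 against Auto.D36 (0%). At an unadjusted p under 0.05 there were 0 members in the first 4 of these, where all genes had 7.75%, 4.46%, 6.58% and 20.9%. In the last there were 2, with 4.88%, or 1 of 19 without ASPM and KIF23. Auto.D36 and Auto.D14 share no batch.

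Some animals were sampled more than once. Changes within an animal are described by their median over the 21 members. From day 14 to day 28 it was -0.68 in R.218, -0.53 in R.221, -0.49 in R.217, -0.19 in R.220 and 0.30 in R.219, all given KY1005 with sirolimus. From day 28 to about day 100 it was 1.03 in R.217, with 19 of 21 members up, and -0.67, -0.22 and -0.09 in R.219, R.221 and R.220. R.219 and R.217 thus stood out at different times. The single animal with KY1005.D14 and KY1005.F arrays, R.212, had a median change of -0.57 from day 16 to day 23, and 1 of 21 members was higher at the later time.

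From day 14 to Tac.Mtx.F the median change was 0.35 in R.19, 0.27 in R.21 and -0.15 in R.20. From Bela.Siro.D14 to Bela.Siro.F it was 0.78 in R.38, 0.64 in R.42 and 0.03 in R.49. Between Auto.D14 and Auto.D36 it was 0.70 in R.200, with all 21 members up, 0.32 in R.201 and -0.67 in R.202. From Auto.D36 to Auto.D100 it was -1.19, -0.59 and -0.03 in the same animals. These are medians of changes and can differ from the change of the median level: the median difference from healthy of R.49 was 0.20 in Bela.Siro.F and 0.28 in Bela.Siro.D14, and that of R.20 was 1.33 in Tac.Mtx.F and 1.22 in Tac.Mtx.D14. Changes within an animal carry no batch term. The arrays of R.200, R.201 and R.202 are of batch 5 in Auto.D14 and Auto.D100 and of batch 4 in Auto.D36. In the fit with batch, Auto.D36 against Auto.D14 had a median of -0.18, with 6 of 21 members above 0. R.201 and R.202 of Auto.D14 are also arrays with a sign of degraded RNA.

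**Figure D4:**
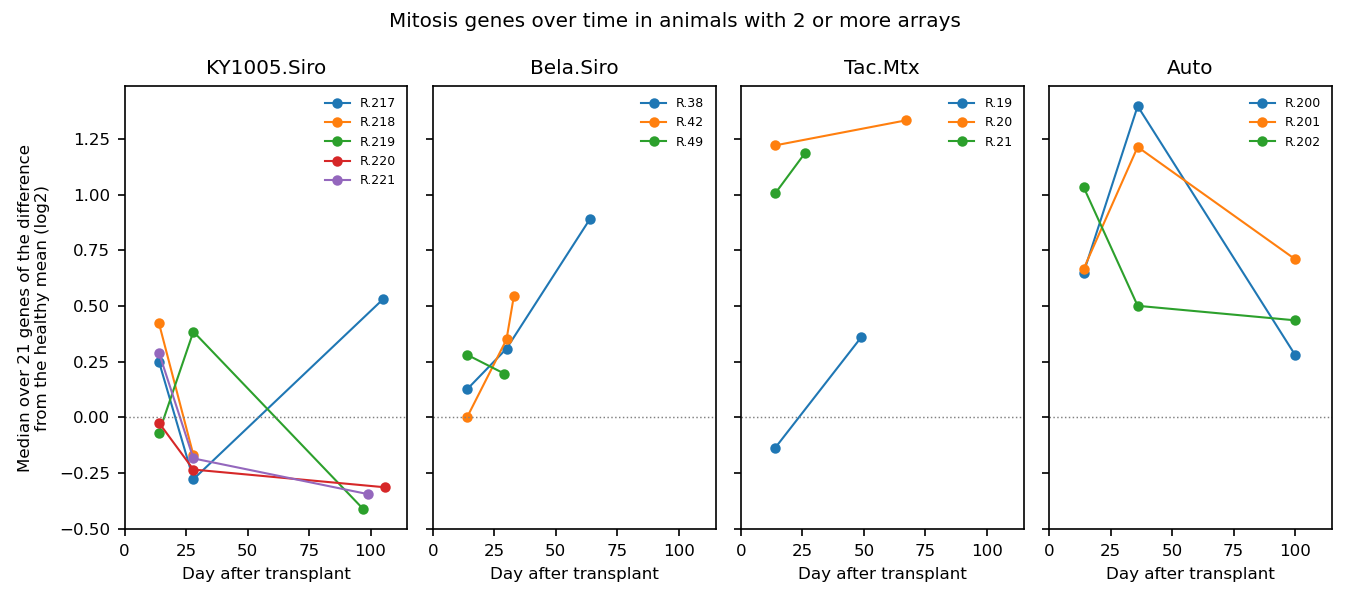
Median over the 21 members of the difference from the healthy mean (vertical axis, log2 units) against day after transplant (horizontal axis) for animals sampled more than once, by treatment, with a dotted line at 0. R.217 given KY1005 with sirolimus is at 0.53 near day 100 while R.219, R.220 and R.221 are between -0.41 and -0.31.

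Some recipients also had a healthy array of their own. R.53 in NoRx.F had a median member 1.77 above its own healthy array, with 19 of 21 members higher. In Siro.F it was 2.19 for R.18, 1.16 for R.13 and 0.84 for R.16, with 19, 18 and 19 members higher, and in KY1005.F it was 1.11 for R.206 with 19. Autologous recipients had 1.28, 0.59 and 0.46 (R.202, R.200 and R.201) at day 14 and 1.33, 0.98, 0.77 and 0.76 (R.200, R.201, R.62 and R.202) in Auto.D36. All of these were above 0, the same direction as against the group of healthy animals. At day 100 autologous recipients had 0.61, 0.44, 0.27 and -0.26 (R.202, R.201, R.200 and R.60), and R.49 with belatacept and sirolimus had 0.03 at day 14 and -0.01 in Bela.Siro.F. These differences carry no batch term. The healthy array was of another batch for R.16, for R.206, and for R.200, R.201 and R.202 at days 14 and 100.

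PTTG1 had a difference below 0 in the 6 groups given sirolimus with KY1005 or belatacept. It was -0.97, -0.88 and -1.30 in KY1005.Siro.D14, KY1005.Siro.D28 and KY1005.Siro.F, and -1.05, -0.66 and -0.78 in the 3 groups with belatacept by time, of which those in KY1005.Siro.F and Bela.Siro.F were called. In Siro.F it was -0.50, which rests on R.17 at 8.10, since the other 3 arrays (11.10, 11.11 and 11.60) lay above the healthy median of 11.07. In the groups without sirolimus it was 1.12 in NoRx.F, -0.13 and 0.08 in KY1005.D14 and KY1005.F, 0.03 and 0.57 in Tac.Mtx.D14 and Tac.Mtx.F, and 0.93, 0.32 and 0.98 in Auto.D14, Auto.D36 and Auto.D100. All of these share the same healthy controls, and groups of the same treatment share animals. Healthy arrays of PTTG1 averaged 11.32 in batch 6, the highest of the 6 batches, and 10.51 in batch 5, the lowest. Batch 6 holds the groups given KY1005, and batch 5 holds Auto.D14 and most of Auto.D100. The part of treatment, batch or shared animals in these differences was not tested. Another probe set of the same gene entry was called lower in KY1005.Siro.D14 (-1.19, limma adjusted p = 0.012), KY1005.Siro.D28 (-1.02, limma adjusted p = 0.0176), KY1005.Siro.F (-1.33, limma adjusted p = 0.0049) and Bela.Siro.F (-0.89, limma adjusted p = 0.00918), and higher in NoRx.F (0.95, limma adjusted p = 0.013). The annotation pairs 2 further probe sets with PTTG1 under another gene entry, and they did not follow: in NoRx.F they differed by -0.06 (limma adjusted p = 0.888) and -1.21 (limma adjusted p = 0.000548).

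Probe sets of DLGAP5 disagreed too. The brighter, used above, was not called in NoRx.F, Siro.F or KY1005.F. The dimmer had a healthy mean of 2.91 ± 0.37 (SD, n = 45) and had 6.53, 5.40, 6.36 and 4.25 in R.50, R.52, R.53 and R.51 of NoRx.F, against 2.24 to 3.90 in healthy controls. No healthy array of this probe set reached the median of all values, so it passed the filter only through arrays after transplant, and its differences are a description: 2.85 in NoRx.F, 1.56 in Siro.F, 1.48 in KY1005.F, 1.59 in Tac.Mtx.F, 1.68 in Auto.D14 and 1.62 in Auto.D36. The probe sets of DLGAP5 thus differed in direction in each of these groups. For PBK the dimmer probe set lay at 4.45 to 4.83 in NoRx.F, against 4.60 to 5.54 in healthy controls, and was not called there (-0.35, limma adjusted p = 0.0661), but it fell in KY1005.Siro.D28 (-0.57, limma adjusted p = 0.00567). Of the 38 tested probe sets of the members, 31 were at or above the overall median value on 3 or more healthy arrays. Of these 31, 25 were called higher and 2 lower in NoRx.F, 21 and 2 in Siro.F, 18 and 0 in Auto.D36, 18 and 0 in Auto.D14, 13 and 1 in Tac.Mtx.F and 8 and 0 in KY1005.F. Of all 31711 tested probe sets, 8705, 2824, 2937, 6157, 4520 and 1040 were called in either direction in these groups, in the same order.

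**Figure D5:**
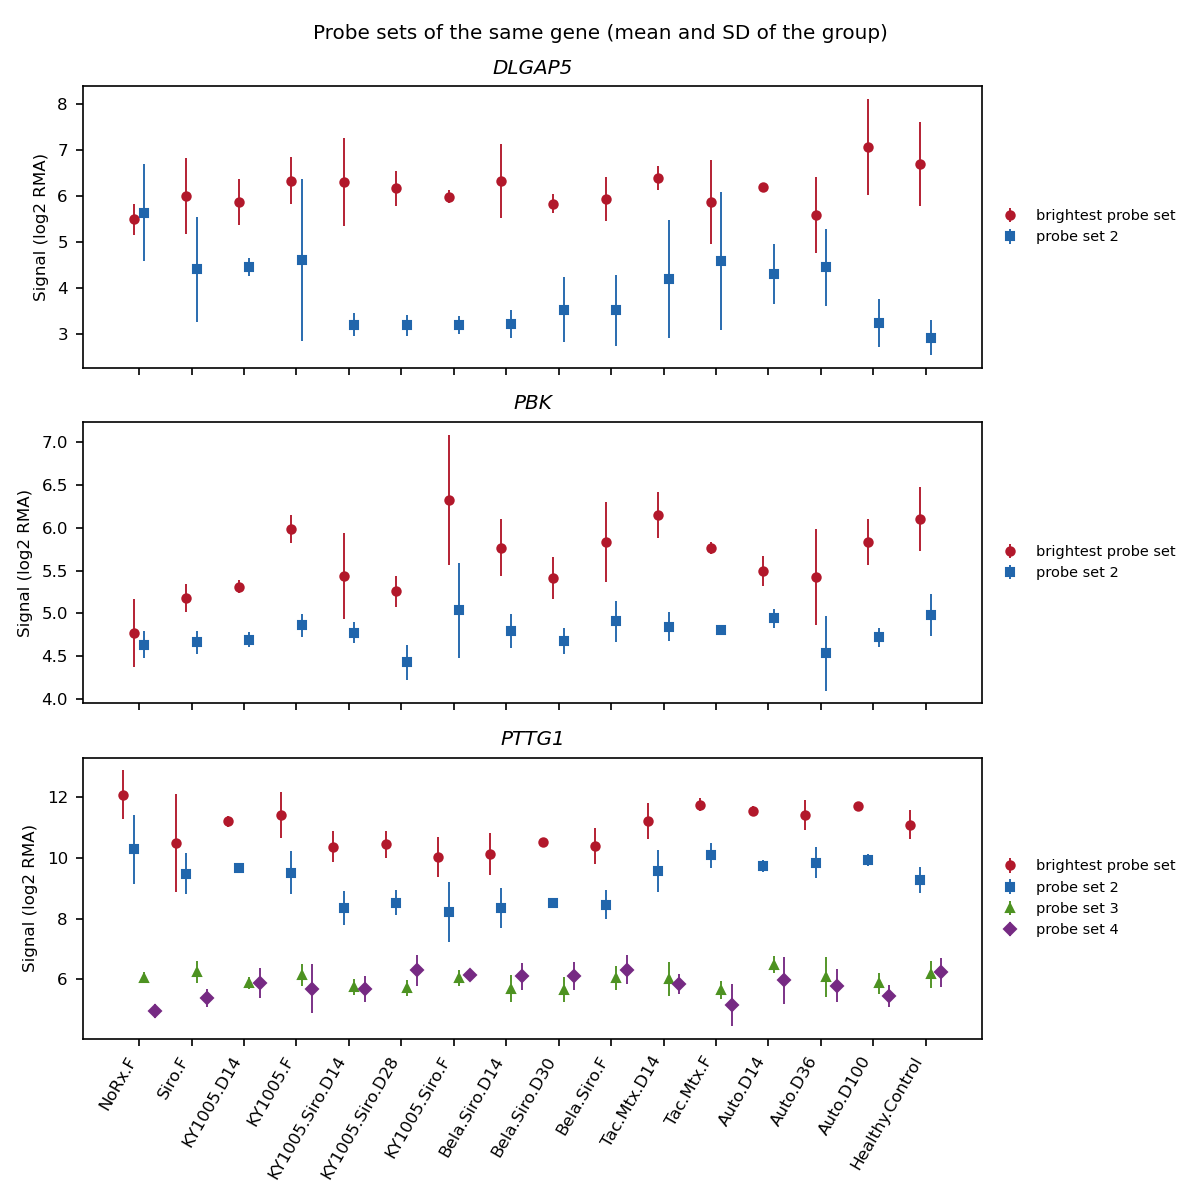
Mean and SD (log2 RMA signal) of each probe set of DLGAP5, PBK and PTTG1 in the 16 groups. Against healthy controls the dimmer DLGAP5 probe set lies higher and the brighter lower in NoRx.F (2.85 and -1.13), and the brightest PTTG1 probe sets lie low in the groups given sirolimus with KY1005 or belatacept while probe sets 3 and 4 do not follow them.

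The members varied together. Over 101 arrays the median correlation of the 210 pairs of members was 0.728 (Pearson). It was 0.773 over the 56 arrays after transplant and 0.271 over the 45 healthy arrays. The arrays share animals and batches, so these are descriptions. MKI67 followed the median of the other members most closely (r = 0.94), with CCNB2 (0.94), CDK1 (0.93), NCAPG (0.93) and ZWINT (0.92) beside it. MAD2L1 followed it after transplant (0.80) and hardly in healthy animals (0.02), and so did AURKB (0.81 and 0.14). PTTG1 had 0.50, DLGAP5 -0.24 and PBK -0.49 over all arrays.

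Of 10697 other genes, the 10 whose level over the 101 arrays was most like the median member were KIF2C (r = 0.95), a kinesin that takes microtubules apart, E2F8 (0.947), a repressor of the E2F family, LOC709633 (0.942), OIP5 (0.941), which helps to load CENPA, CDKN3 (0.938), a phosphatase of cyclin-dependent kinases, NUF2 (0.938), of the kinetochore, UBE2K (0.937), a ubiquitin-conjugating enzyme, TYMS (0.937), which makes thymidylate, RAD51AP1 (0.932), of DNA repair, and MCM5 (0.927), of the replicative helicase. KIF2C, OIP5 and NUF2 stand in the list of other mitosis genes below. The gene most opposed was CBX7 (-0.846), a Polycomb protein.

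Of 73 further genes of mitosis, chosen beside the members, 46 were tested. Of these, 10 passed the filter only through arrays after transplant, OIP5 and NUF2 among them, and 36 were also measured in healthy controls. In NoRx.F 29 of the 36 rose and none fell, with a median of 1.25, where 19% of all genes were called higher. SHCBP1, a partner of the midzone kinesin complex, rose by 3.55 ± 0.45, and the centromere proteins CENPU and CENPW by 2.85 ± 0.30 and 2.85 ± 0.29. The same 36 had 22 higher and 1 lower in Auto.D36 (5.78% of all genes called higher) and 19 higher in Siro.F (6.04%). They had 18 higher in Tac.Mtx.F (10.1%), 17 in Auto.D14 (13.7%) and 6 in KY1005.F (1.79%). The other groups after transplant had at most 3, with 0.168% to 7.86% of all genes called higher. Set against NoRx.F, 28 of the 36 were lower in KY1005.Siro.D14 (12.2% of all genes called lower), 9 in Siro.F (5.17%) and 8 in KY1005.F (6.51%). NoRx.F thus had the most calls in this list too, and KY1005.F the fewest of these 6 groups. The same groups had the most and the fewest of all genes called higher among the 6.

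Among 16 tested genes that hold cells out of the cycle or act in exit from it, 4 fell and 3 rose in NoRx.F, shares near the 15.2% lower and 19% higher of all genes. CDKN1B, the inhibitor p27, fell by 1.49 with an SE of 0.15, BTG2, an antiproliferative factor, differed by -1.25 ± 0.39, RBL2, a pocket protein of resting cells, by -0.89 ± 0.16, and LIN9, of the DREAM and MMB complexes, by -0.56 ± 0.17. CDKN2A rose by 1.47 ± 0.42, CDKN2C by 0.94 ± 0.19, both inhibitors of CDK4 and CDK6, and LIN37, of the DREAM complex, by 0.71 ± 0.12. In Siro.F CDKN2A and CDKN2C rose and CDKN1B fell (-0.48 ± 0.14).

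Markers of other cells moved with some of these groups. The mean level of 7 measured myeloid genes was 10.05 (R.52), 9.76 (R.50), 7.64 (R.53) and 6.25 (R.51) in NoRx.F, against 4.67 to 8.24 in healthy controls. The arrays highest in mitosis genes were thus also highest in these. S100A9, S100A8 and FCN1 were called higher in NoRx.F, as were 19% of all genes. The mean myeloid level was 10.13 in R.211 of KY1005.F, the array highest in mitosis genes there. In that array 6 granulocyte genes were at 7.46, against 4.61 to 5.71 in healthy controls. In KY1005.Siro.F the mean myeloid level was 5.39 in R.217 and 9.87 to 11.48 in the other 3 animals, in the opposite order to the mitosis genes. The 5 measured plasma cell genes had 6.82 to 7.24 in NoRx.F and 6.84 to 7.66 in Siro.F, with R.18 the highest, against 6.40 to 7.23 in healthy controls. MZB1 and XBP1 were called higher in both groups (19% and 6.04% of all genes). The 6 B cell genes had 5.89 to 6.00 in NoRx.F, against 5.19 to 6.66. The 3 NK cell genes had 9.67 (R.53), 8.29 (R.50), 8.10 (R.52) and 7.95 (R.51) in NoRx.F, against 8.68 to 10.34 in healthy controls. Of these, 2 were called lower (15.2% of all genes). In KY1005.Siro.D14 and Bela.Siro.D14, where no member was called higher, myeloid genes were raised too. In KY1005.Siro.D14 3 of 7 were called higher (1.66% of all genes), at a mean level of 8.00 to 9.44. In Bela.Siro.D14 3 of 7 were called higher (2.31% of all genes), at 6.84 to 10.45. In NoRx.F TRAT1, an adaptor of the T cell receptor complex, differed by -1.47 ± 0.21. The part of other cells in the results on mitosis genes was not tested.

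RNA quality also varied. The difference between the 3' and the 5' control probe sets of actin, in log2 units and larger where RNA is degraded, exceeded 2.5 in 6 arrays: R.202 (3.38) and R.201 (3.30) of Auto.D14, and healthy R.208 (3.95), R.22 (3.69), R.207 (3.30) and R.32 (2.94). Without these 6 arrays Auto.D14 keeps 1 array and no member was called, CCNB2 then differing by 2.06 ± 0.89, and KY1005.F had 1 member called in place of 9. With the ratio as a covariate KY1005.F had 5. R.207 and R.208 are 2 of the 7 healthy arrays of batch 6, which holds KY1005.F. Counts of the other groups named above as having 10 or more members called stayed within 1.5 times.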

How the data were processed

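The deposited values are log2 intensities of 52865 probe sets on 102 arrays, made by the authors with RMA (affy), per the submitters' processing notes, which give no versions; the RNA (70 to 85 ng) was labelled with a 3'IVT kit, per the labels' protocols. Whether the authors adjusted the values for batch is not given in the sources used here; among healthy arrays the batch term had p under 0.05 in 0.274% of probe sets and over 0.95 in 24.9%. The 2 healthy arrays of R.201 were averaged, which left 101 arrays of 66 animals.

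Control probe sets (99) were left out, and 31711 probe sets that reached the overall median value on 3 or more arrays were fitted in limma 3.58.1 (R 4.3.3) with 16 groups and 6 batches as terms, moderated by eBayes. The p-values were adjusted by Benjamini-Hochberg over all of these, and a gene was called at an adjusted p under 0.05 on its brightest probe set paired with it alone. The named genes are among 10718 such genes. The script was tested on simulated data. Within-batch fits used only the batches that hold a group.

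Animals recur, so arrays pair by the animal the labels name. Residuals of the 51 pairs of arrays of 1 animal had a median correlation of 0.184, positive in 37 pairs and lowest at -0.29, and the consensus correlation was 0.11. The main fit has no block.

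The members, lists, tests and alternatives were chosen with earlier results of these data known. Genes given in each comparison were CCNB1, CCNB2, CDK1, TOP2A, MKI67 and AURKB, with BIRC5 and CDC20 not analysed, the members with the 3 largest and 3 smallest differences in NoRx.F, and the 3 largest called per comparison; of other genes, up to 4 called per list with the largest difference in NoRx.F and the 10 most like the median member. Markers of other cells were named by the same rule or chosen after their values were seen. The alternatives tried were a fit without batch, a block by animal, no filter, further quantile normalization, the mean of a gene's probe sets, arrays of high actin ratio left out or that ratio as a covariate, 1 array of R.201, and each array of a group left out in turn. Lists of sequences for the members were not used here.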

Additional observations from a re-analysis of the deposited data

Results flagged for a closer look

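Over 80 values and groups examined, about 1 in 20 groups is expected by chance to hold an array far from the others. DLGAP5 (brighter probe set) was 7.23 in R.16 of Siro.F, against 5.47 to 5.75 in the other 3 arrays, and 8.62 in R.60 of Auto.D100, against 6.35 to 6.72 in the others. In KY1005.Siro.D28, MKI67 was 6.99 in R.219, against 5.62 to 6.0 in the other 4 animals, and the median member of the same array was 0.38 above the healthy mean, against -0.28 to -0.17 in the others. In KY1005.Siro.F, AURKB was 8.25 in R.217, against 7.11 to 7.22 in the other 3 animals, and the median member of that array was 0.53, against -0.41 to -0.31. The 7 myeloid genes averaged 4.58 in R.219 at day 28, against 7.32 to 7.97 in the other animals, and 5.39 in R.217 in KY1005.Siro.F, against 9.87 to 11.48, so both arrays high in mitosis genes were low in these; their part in the result was not tested. CCNB2 was 6.31 in R.202 of Auto.D36, against 7.86 to 8.12 in the other 3 animals.

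Within animals, the median change of the members was above 0 in 3 of 3 animals from Bela.Siro.D14 to Bela.Siro.F (median 0.64, range 0.03 to 0.78) and below 0 in 3 of 3 animals from Auto.D14 to Auto.D100 (median -0.33, range -0.64 to -0.19). R.201 and R.202 of Auto.D14 are among the arrays with a sign of degraded RNA, with actin differences of 3.30 and 3.38. Their Auto.D100 arrays had -0.07 and -0.03. The part of RNA quality in the change was not tested. The difference between the treatments was not tested, and the days differ. By the difference of the arrays' own medians the direction was not the same in all: R.49 had 0.20 in Bela.Siro.F and 0.28 in Bela.Siro.D14, and R.201 had 0.71 in Auto.D100 and 0.67 in Auto.D14.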

How the results depend on the processing

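Directions were checked for members where called, and for CCNB1, CCNB2, CDK1, TOP2A, MKI67 and AURKB in every comparison. None of these turned its direction while called in any setting. DLGAP5, called in no comparison, was not checked, and its probe sets differed in direction in several groups. Without the batch term the count of members called was 7 in KY1005.D14 (0 in the fit reported), 14 in KY1005.F (9), 1 in KY1005.Siro.D14 (0), 4 in Bela.Siro.F (2), 4 in Tac.Mtx.D14 (1), 0 in Auto.D100 (1), 10 in KY1005.F against NoRx.F (6) and 12 in NoRx.F against Auto.D36 (4). With arrays paired by animal as a random replicate block it was 1 in KY1005.D14 and 0 in Auto.D100, and with a fixed replicate block 0 in KY1005.Siro.F against KY1005.Siro.D28, and the block moved no other count past 1.5 times. Within batches it was 3 in KY1005.F, 1 in Bela.Siro.D14 and 4 in Auto.D100. With no filter it was 1 in Bela.Siro.F, 0 in Auto.D100 and 1 in KY1005.Siro.D14 against KY1005.F (2). Further quantile normalization gave 1 in KY1005.D14, 2 in KY1005.Siro.D28 (1), 0 in Auto.D100 and 10 in KY1005.F against NoRx.F. The mean of a gene's probe sets gave 1 in KY1005.Siro.D14, 2 in KY1005.Siro.D28, 1 in Bela.Siro.D14 and 2 in Tac.Mtx.D14. Without arrays of high actin ratio it was 1 in KY1005.F, 0 in Auto.D14 (14), where 1 array remained, 0 in Auto.D100 and 3 in KY1005.F against NoRx.F; with that ratio as a covariate it was 5 in KY1005.F, 0 in Auto.D100 and 0 in KY1005.Siro.D14 against KY1005.F. The cause of these moves was not tested. All other counts stayed within 1.5 times.

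Leaving out each array in turn, the count ranged from 18 to 20 in NoRx.F, 5 to 19 in Siro.F, 0 to 14 in KY1005.F, 0 to 1 in KY1005.Siro.D14, 1 to 1 in KY1005.Siro.D28, 0 to 2 in KY1005.Siro.F, 1 to 2 in Bela.Siro.F, 0 to 8 in Tac.Mtx.D14, 2 to 13 in Tac.Mtx.F, 1 to 14 in Auto.D14, 8 to 14 in Auto.D36 and 0 to 0 in Auto.D100. Between groups it ranged from 3 to 11 in Siro.F against NoRx.F, 0 to 14 in KY1005.F against NoRx.F, 18 to 18 in KY1005.Siro.D14 against NoRx.F, 3 to 8 in NoRx.F against Auto.D36, 0 to 7 in KY1005.Siro.D14 against KY1005.F and 0 to 1 in KY1005.Siro.F against KY1005.Siro.D28. It was 0 to 0 in KY1005.D14, Bela.Siro.D14, Bela.Siro.D30 and in the 5 comparisons over time that had no call. A group left with 1 array is assumed to vary like the others. Of 1323 values of named genes with an array left out, 1178 kept their status, whether called or not called. Of the rest, 134 lost a call and 11 gained one. The 1178 include values that had no call to lose. ASPM and KIF23 lay below the median of all values in every healthy array, which limits their healthy level.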
